A study of Mus musculus with 20 samples.

Results

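The regions described here were open in fetal mammary stem cells and adult basal cells of the mouse mammary gland, and were not called open in either adult luminal cell type. They were found by merging the 4 pooled ATAC-seq peak lists of normal mammary cells into 128797 regions on chromosomes 1 to 19 and X. A merged region was a member if it held a peak of the basal list and a peak of the fetal list and none of the luminal progenitor or mature luminal lists. This gave 12399 fetal-basal regions, 9.63% of all merged regions, covering 9.30 Mb. Members were selected on the presence or absence of a called peak in these 4 lists, so the number of members, their widths and the folds of their peaks are given as a description, with no test.

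The mammary gland is a bilayer. Basal cells form the outer layer, lie on the basement membrane and contract to expel milk, while luminal cells line the ducts and make milk or sense hormones. Before birth the mammary rudiment holds cells that express basal and luminal traits together, and cells of this stage can form both layers when transplanted. ATAC-seq uses the Tn5 transposase to insert sequencing adapters into accessible DNA, so a peak marks a promoter, an enhancer or another site that is not tightly wrapped. A site open in fetal and basal cells but not in luminal cells is thus one whose accessible state the outer layer and the fetal cells have in common.

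All normal cells were sorted from mammary glands of C57BL6J mice, with 2 samples for each of 4 populations: adult basal cells, adult luminal progenitors, adult mature luminal cells and the fMaSC population (fetal mammary stem cells) of embryonic day 18. The authors called each peak list on both samples of a population together, so no value per sample and no replicate error can be given. Tumour lists came from PY230, a mouse mammary tumour line, which was transplanted into syngeneic mice and sorted again from the tumours. These lists name regions open or closed in luminal SOX10-high cells (3 samples), as set against luminal SOX10-low cells (3 samples), as far as the sample descriptions tell. SOX10 is a transcription factor best known from the neural crest, and it is also made in fetal mammary cells. PY230 samples carry the same strain label as the normal cells. Pooling of animals, sorting markers and the age of the adult mice are not stated in the labels. The files pair no region with a gene and no annotation of their build (mm9) was used, so the labelled cell types were not checked against marker genes and all regions are named by position. In sorted bulk samples, fewer cells that are open at a site and less signal per cell cannot be told apart. Depth per sample is unknown, and intervals below cover counting error over regions only. Regions of 1 list share their libraries and often lie side by side, so they are not replicates of a cell population.

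Most fetal-basal regions were a simple pair of 1 basal and 1 fetal peak. This held for 11997 members, or 96.8%, while 353 joined several fetal peaks under 1 basal peak and 44 the reverse. Member width ran from 208 to 5186 bp. Its median was 662 bp in members and 588 bp over all merged regions. The basal stretch was the wider in 73.0% of members, with a median of 588 bp in basal cells and 396 bp in fetal cells. The shorter stretch lay wholly inside the longer in 66.2% of members, and in 181 members the stretches shared less than 50% of the shorter. Shared bases made up 53.6% of the sequence the members covered.

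The peaks of fetal-basal regions were of modest strength in both cell types. Strength here is the fold that the authors' peak caller gave for a peak over its own background, which ranks peaks within a list. The basal fold of members had a median of 6.90, against 7.98 over all basal peaks, and the fetal fold a median of 6.58, against 7.60 over all fetal peaks. Basal folds of members ran from 3.23, the lowest in the basal list, to 33.4, and fetal folds from 3.29, the lowest in the fetal list, to 34.7. In 20.3% of members both peaks reached the median of their list, in 20.5% the basal peak alone did, in 18.7% the fetal peak alone did, and in 40.5% neither did. In the top 10% of a list by fold there were 223 members for basal cells and 150 for fetal cells. The folds of both cell types were only loosely related across the 12399 members (Spearman's rho 0.239 across regions, which share libraries, width and calling threshold). Across the 38741 merged regions with a basal and a fetal peak and at least 1 luminal peak, whose folds span a wider range, rho was 0.682.

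The ratio of basal to fetal fold spanned 0.138 to 5.37 among members, with a median of 1.04. It was at least 2 in 1213 members, at most 0.5 in 761 members, and between these values in 10425 members, or 84.1%. The scales of both lists were set by their own backgrounds, so a ratio of 1 does not show equal accessibility. By rank within members, the strongest region in both cell types at once spanned positions 77743475 to 77744789 of chromosome 16 (mm9) and had a basal fold of 29.1 and a fetal fold of 29.6. The next lay on chromosome 17 from 42321677 to 42323063, with a basal fold of 26.9 and a fetal fold of 28.6. The region with the highest basal fold, 33.4, lay on chromosome 8 from 22044242 to 22045498 and had a fetal fold of 27.1, which ranked 17 among the members. Its nearest luminal progenitor peak was 1104235 bp away and its nearest mature luminal peak 136196 bp away. The highest fetal fold, 34.7, was on chromosome 10 from 113543058 to 113544497, where the basal fold was 13.1. At the uneven ends, a region on chromosome 13 from 113600460 to 113601664 had a basal fold of 21.8 and a fetal fold of 4.05. A region on chromosome 6 from 49167615 to 49168432 had a basal fold of 3.66 and a fetal fold of 26.6. Members thus include sites with far higher folds in adult basal cells and sites with far higher folds in fetal cells.

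**Figure D1:**
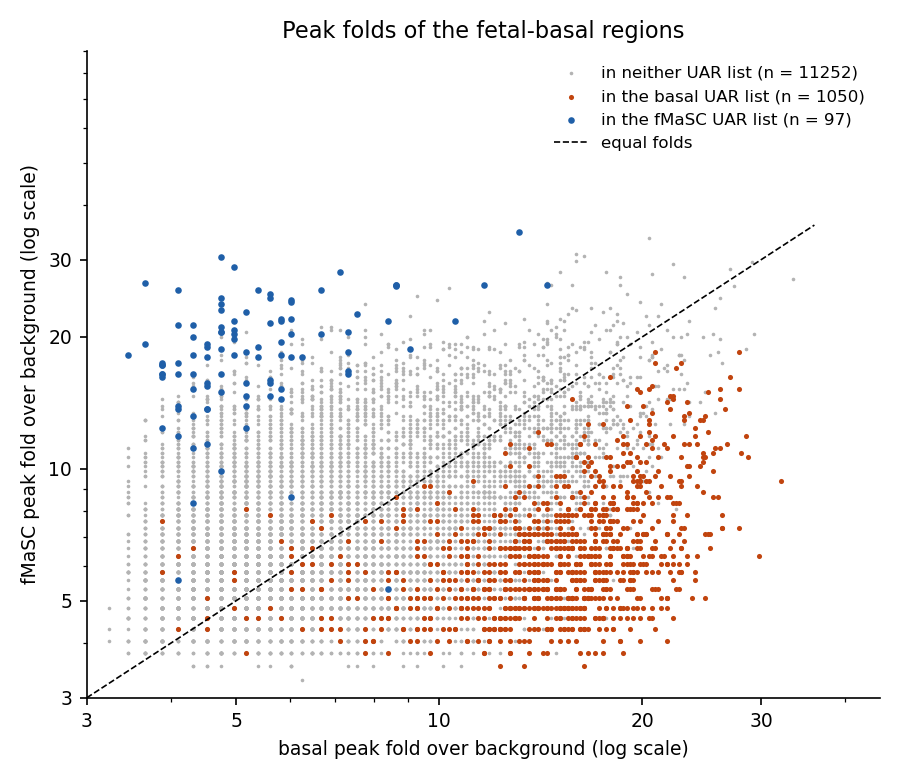
Each point is one of 12399 fetal-basal regions, placed by the fold of its basal peak (x axis, log scale) and of its fMaSC peak (y axis, log scale), and the dashed line marks equal folds. Regions in the basal UAR list (1050) sit mostly at high basal folds below the line, and regions in the fMaSC UAR list (97) sit above it except for 1 region.

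Membership varied with peak strength, which is a description, since the same peak lists gave the members and the folds. Of the 51140 merged regions with both a basal and a fetal peak, 12399, or 24.2%, were members. When these shared regions were put into 10 groups of nearly equal size by the geometric mean of their basal and fetal folds, members made up 57.0% of the weakest group, 26.1% of the fifth group and 0.567% of the strongest. The strongest group thus held 29 members among 5114 regions, and 99.3% of its regions had a luminal progenitor peak. The share with a luminal progenitor peak was 34.3% in the weakest group, and that with a mature luminal peak 26.1%, against 96.7% for mature luminal peaks in the strongest. Median width went up over the same groups, at 503 bp in the weakest and 1961 bp in the strongest. The luminal lists were also shorter, with 60030 luminal progenitor and 61584 mature luminal peaks, against 80294 basal and 79910 fetal peaks on the chromosomes analysed. When every list was limited to its 60030 strongest peaks, the class had 6495 regions, which overlapped 6454, or 52.1%, of the 12399 members. How far weak luminal signal below the calling threshold adds to the class was not tested.

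**Figure D2:**
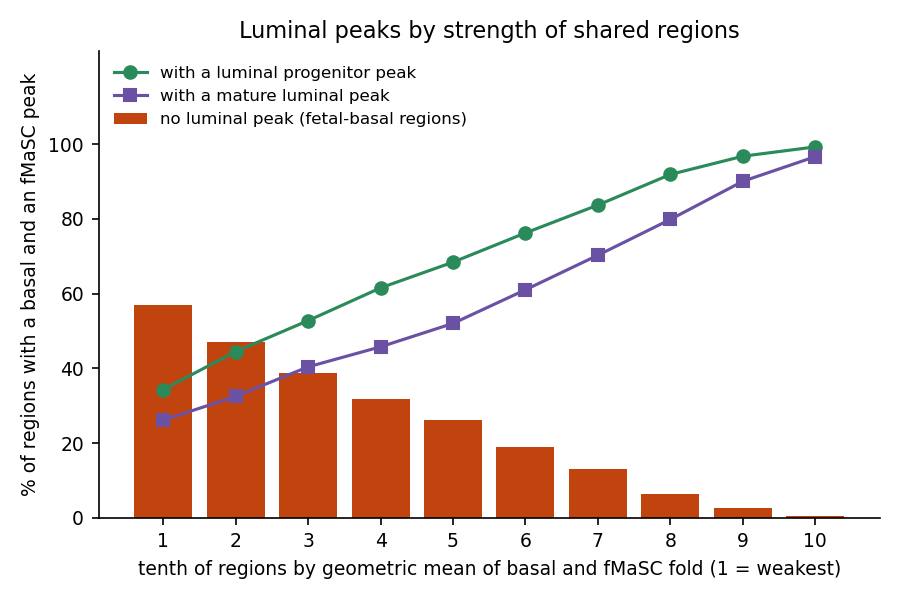
Merged regions with a basal and an fMaSC peak, in 10 groups of nearly equal size by the geometric mean of both folds (x axis, 1 = weakest), with the percentage lacking any luminal peak as bars. Lines give the percentage with a luminal progenitor or a mature luminal peak. Members fall steadily, at 57.0% in the weakest and 0.567% in the strongest group.

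The borders of the class were close in places. A luminal peak lay within 500 bp of 530 members (4.27%) and within 5 kb of 5086 members (41.0%), and 425 members (3.43%) had none within 100 kb. The median distance was 9938 bp to the nearest luminal progenitor peak, 10185 bp to the nearest mature luminal peak and 20056 bp to the nearest region open in all 4 types. Just inside the border, a member on chromosome 9 from 83926304 to 83927019, with a basal fold of 9.70 and a fetal fold of 5.06, was 2 bp from a luminal progenitor peak. Just outside it, a region on chromosome 1 from 135590783 to 135591476 had a basal fold of 6.25 and a fetal fold of 6.84, and was no member because of a luminal progenitor peak with a fold of 3.12, the lowest in that list. Of the 8330 regions with basal, fetal and luminal progenitor peaks, 1195 had a luminal progenitor fold within 5 steps of that lowest value, a step of 0.208 being the unit of which all folds in that list are whole multiples. Their median basal fold was 7.54 and their median fetal fold 7.34, above the medians of the members.

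The authors also deposited, for each cell type, a list named UAR and one named URR, abbreviations the labels do not spell out. These lists come from the same cells as the peaks, so they describe the members and support nothing about them. Basal UARs overlapped 1050 members, or 8.47%, against 4.80% of all merged regions, and 17.2% of basal-only regions. Fetal UARs overlapped 97 members, or 0.782%, against 1.06% of all merged regions and 5.93% of fetal-only regions. Of the 12399 members 0 were in both lists, and a count of 0 allows a share of up to 0.0242% (3 counts). The same count was not made over all merged regions, so it cannot be read as particular to members. Seen from the lists, 1009 of the 5144 basal UARs (19.6%) and 96 of the 1222 fetal UARs (7.86%) overlapped a fetal-basal region.

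Members in a UAR list differed widely in shape from the rest. Those in the basal UAR list had a median basal fold of 15.3 and a median fetal fold of 6.08, and their median stretch was 1180 bp in basal cells and 358.5 bp in fetal cells. Their basal fold was the higher in 1032 of 1050 members. Members in the fMaSC UAR list had a median basal fold of 4.96 and a median fetal fold of 18.5, with median stretches of 380 bp in basal cells and 1002 bp in fetal cells. The remaining 11252 members, 90.7%, had a median basal fold of 6.68 and a median fetal fold of 6.58. One member under a basal UAR of infinite score, on chromosome 15 from 101540565 to 101545750, was also the widest of all members, at 5186 bp. Its basal stretch filled the region at a fold of 20.0, and its fetal peak covered 315 bp at a fold of 7.09. A member close by, from 101546122 to 101546642, had an infinite basal UAR score too. The next widest members, on chromosome 11 from 100066084 to 100070520 and on chromosome 1 from 74837742 to 74841908, were each 1 basal peak over 3 fetal peaks. The fMaSC UAR of highest score over a member was found on chromosome 12 from 80781097 to 80782216. Its score was 15402, with a basal fold of 5.17 and a fetal fold of 18.5. Mature luminal URRs overlapped 17 members (0.137%), against 0.904% of all merged regions and 10.3% of regions with basal, fetal and luminal progenitor peaks. Classes that also lack a luminal peak had low shares too, at 0.100% of basal-only and 0.0693% of fetal-only regions. Luminal progenitor URRs overlapped 0 of 12399 members, which allows a share of up to 0.0242%, and 0.0225% of all merged regions, so a difference was not detectable at this number of regions.

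Fetal-basal regions were found on every chromosome analysed. Their share of the regions with a basal and a fetal peak ran from 19.4% on chromosome X (197 of 1014) and 19.5% on chromosome 19 (267 of 1370) to 28.2% on chromosome 9 (750 of 2657). Members with another member within 10 kb made up 26.7%, against 24.3% of the 17328 fetal-only regions and 40.9% of the 19944 basal-only regions, classes of larger size. The regions next to a member along the chromosome were basal-only in 20.8% of cases and fetal-only in 14.6%, against 15.5% and 13.5% of all merged regions. They were open only in luminal types in 13.4% of cases, against 20.2% of all merged regions. Next to basal-only regions, such luminal regions made up 13.7% and basal-only regions 25.0%. Next to fetal-only regions these shares were 18.6% and 11.0%.

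In the order of merged regions, 3285 members (26.5%) stood next to another member, mostly as 1240 pairs. Of the regions next to a member, 14.5% were members, against 9.63% of all merged regions. Next to fetal-only regions, 25.7% were fetal-only, against 13.5% of all merged regions. Next to basal-only regions, 25.0% were basal-only, against 15.5%. The longest unbroken runs held 6 members, and 3 runs had this length. One spanned 104 kb of chromosome 1 from 186874009 to 186978158, with basal folds of 8.19 to 17.7 and fetal folds of 6.33 to 9.62, and 3 of its members were in basal UARs. Another spanned 45.5 kb of chromosome 13 from 73357105 to 73402619, with 4 members in basal UARs. The most compact lay within 16.7 kb of chromosome 9 from 41387552 to 41404259, and it held no UAR. By density, the fullest window of 1 Mb began at 136913607 on chromosome 1 and held 35 members among 174 merged regions, of which 42 were basal-only and 16 luminal-only. Windows on chromosome 11 from 116918388 and on chromosome 7 from 119520139 followed, with 32 and 29 members.

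The PY230 lists come from other cells than the rule used. They are not a fully independent readout of the members, since many of their regions hold a luminal peak. Fetal-basal regions were seldom among the sites that opened in SOX10-high tumour cells. The open list overlapped 155 of 12399 members, or 1.25% (95% exact binomial interval 1.06 to 1.46%), against 1.88% of all merged regions and 1.95% of the rest of the union. Members minus the rest of the union gave -0.696 points (95% Newcombe interval -0.894 to -0.471), and the share was lower in members on 16 of 20 chromosomes. With the 30015 strongest peaks of each list this difference was -0.200 points, with an interval that included 0 (-0.646 to 0.368). Of the open list itself, 49.7% held a luminal peak, which members lack by definition. Fetal-only regions were open in 2.18% of cases (1.97 to 2.41%), and members minus fetal-only gave -0.931 points (-1.22 to -0.636), lower on 17 of 20 chromosomes. Basal-only regions were open in 0.717% (0.605 to 0.844%), and members minus basal-only gave 0.533 points (0.312 to 0.770), higher on 18 of 20 chromosomes. The share of members thus lay between those of regions seen in either cell type alone.

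Classes with a fetal and a luminal progenitor peak but no mature luminal peak had a far larger open share. Regions with basal, fetal and luminal progenitor peaks were open in 463 of 8330 cases, or 5.56% (5.08 to 6.07%), and regions with fetal and luminal progenitor peaks alone in 12.1% (10.9 to 13.4%). Members minus the first of these classes gave -4.31 points (-4.85 to -3.79), with a lower share in members on each of the 20 chromosomes. Median width was 662 bp in members and 884 bp in regions that also had a luminal progenitor peak. With all regions set to 500 bp the difference was -4.29 points (-4.83 to -3.78). Of the regions with peaks in all 4 normal types, 0.404% (0.333 to 0.486%) were on the open list, and members minus these gave 0.846 points (0.647 to 1.07), higher on each of the 20 chromosomes.

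Closing in SOX10-high cells was also uncommon at these sites. The closed list overlapped 255 members, or 2.06% (1.81 to 2.32%), against 11.0% of all merged regions and 11.9% of the rest of the union, a difference of -9.85 points (-10.1 to -9.53) that was negative on each of the 20 chromosomes. Of the closed list itself, 83.8% held a luminal peak, which members lack by definition, so this difference is not independent of the rule. Among classes without a luminal peak, members had the highest share, against 1.51% of basal-only regions (1.34 to 1.69%) and 1.04% of fetal-only regions (0.893 to 1.20%). Members minus basal-only gave 0.547 points (0.252 to 0.857), and members minus fetal-only 1.02 points (0.732 to 1.32). Regions with an added luminal progenitor peak were closed in 0.756% of cases (0.582 to 0.967%), and those with an added mature luminal peak in 25.7% (24.0 to 27.5%). Closed sites outnumbered open ones in members (0.608 open per closed), in basal-only regions (0.475) and in the rest of the union (0.163). The closed list is also the longer, with 15108 regions against 3208 in the open list. Fetal-only regions had 378 open and 180 closed, and regions with basal, fetal and luminal progenitor peaks had 7.35 open per closed.

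**Figure D3:**
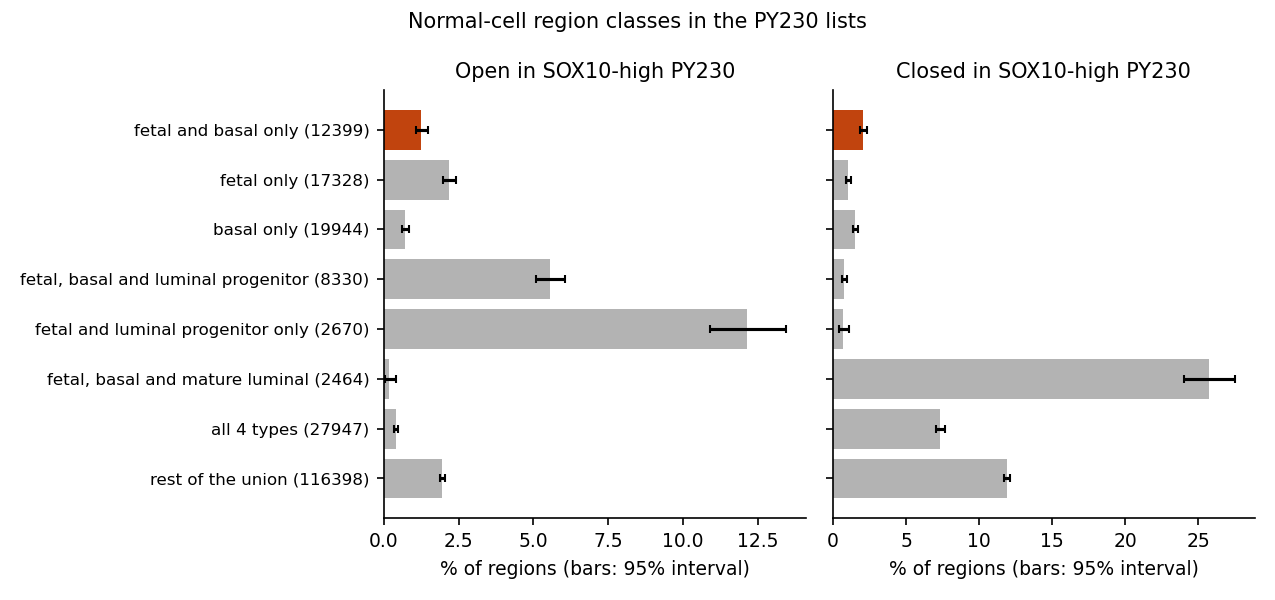
Percentage of each class of merged regions (rows, with the number of regions) that overlapped the PY230 list of regions open (left) or closed (right) in SOX10-high cells, with 95% exact binomial intervals. Fetal-basal regions, in colour at the top, were open in 1.25% and closed in 2.06%, below the classes with fetal and luminal progenitor but no mature luminal peaks on the left (5.56 and 12.1%), and below those with a mature luminal peak on the right.

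Some of these overlaps involved a tumour region that reached a luminal peak outside the member. The 155 open members lay under 151 tumour regions, 11 of which also held a luminal peak, and the 255 closed members lay under 248 tumour regions, 63 of which did. With tumour regions that hold no luminal peak, 1.15% of members were open (0.973 to 1.36%), against 1.90% of fetal-only and 0.582% of basal-only regions. On the same terms 1.54% of members were closed (1.33 to 1.77%), against 0.594% of fetal-only and 0.847% of basal-only regions. The order of the 3 classes was the same as with all tumour regions. With all tumour regions, members near a luminal peak had the larger closed share. Of the 889 members within 1 kb of a mature luminal peak, 68 were closed (7.65%). The closed share was 1.79% at 1 to 10 kb, 1.77% at 10 to 50 kb and 0.712% farther off. Farthest minus nearest gave -6.94 points (-8.90 to -5.28). By distance to a luminal progenitor peak, 1.55% were closed beyond 50 kb and 3.04% within 1 kb, a difference of -1.48 points (-2.86 to -0.343). Tumour regions that hold no luminal peak were also taken alone, a comparison chosen after seeing the data. Farthest minus nearest was then -0.0752 points (-0.958 to 0.591) for mature luminal peaks and 1.02 points (0.272 to 1.69) for luminal progenitor peaks. This setting leaves out by construction tumour regions that reach both a member and a luminal peak. Closed members within 1 kb of a mature luminal peak went from 68 to 7, and those beyond 50 kb stayed at 12. The setting therefore cannot decide whether closing varies with distance.

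Within the fetal-basal regions, the open share in SOX10-high cells rose with the fold of the fetal peak. When members were put into 4 equal groups by fetal fold, the open share was 0.645% in the lowest group (20 of 3100), 0.968% in each of the next 2 groups and 2.42% in the highest (75 of 3100). Highest minus lowest gave 1.77 points (1.18 to 2.42), positive on 18 of 20 chromosomes. By basal fold the groups lay at 1.29, 1.16, 1.45 and 1.10%, and highest minus lowest gave -0.194 points with an interval that included 0 (-0.750 to 0.357). Among members with a fetal fold at or above the median, 1.63% were open where the basal fold was also high and 1.75% where it was low. Among members with a fetal fold below the median these shares were 0.643% with a high and 0.849% with a low basal fold. Median width in the groups by fetal fold was 571 bp in the lowest and 856 bp in the highest, and with regions set to 500 bp the difference was again 1.77 points. With tumour regions that hold no luminal peak it was 1.90 points (1.33 to 2.53).

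The closed share was higher at high basal folds. By basal fold the closed share was 1.61% in the lowest group, 1.74% and 1.71% in the next, and 3.16% in the highest (98 of 3100). Highest minus lowest gave 1.55 points (0.793 to 2.33), positive on 16 of 20 chromosomes, 1.42 points (0.678 to 2.18) with regions set to 500 bp, and 1.71 points (1.04 to 2.41) with tumour regions that hold no luminal peak. By fetal fold it was 1.90% in the lowest and 2.29% in the highest group, and the interval of the difference included 0 (-0.332 to 1.11 points). By the ratio of basal to fetal fold, in 5 equal groups, the open share was 0.766% at the basal end and 2.38% at the fetal end, and basal end minus fetal end gave -1.61 points (-2.34 to -0.932). The closed share was 3.02% at the basal end and 1.81% at the fetal end, a difference of 1.21 points (0.354 to 2.09). Of the 1050 members in basal UARs, 5 were on the open list (0.476%, 0.155 to 1.11%), against 1.32% of the other members. On the closed list were 39 of them (3.71%), against 1.90% of the other members. Wide members were closed more often as well, at 2.94% in the widest and 1.55% in the narrowest of 4 groups. They were also open more often, at 1.58% in the widest and 0.968% in the narrowest group (difference 0.613 points, 0.0516 to 1.19). Median width was 1018 bp at the highest and 464 bp at the lowest basal folds, and its part in the result was not tested beyond the fixed width of 500 bp.

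**Figure D4:**
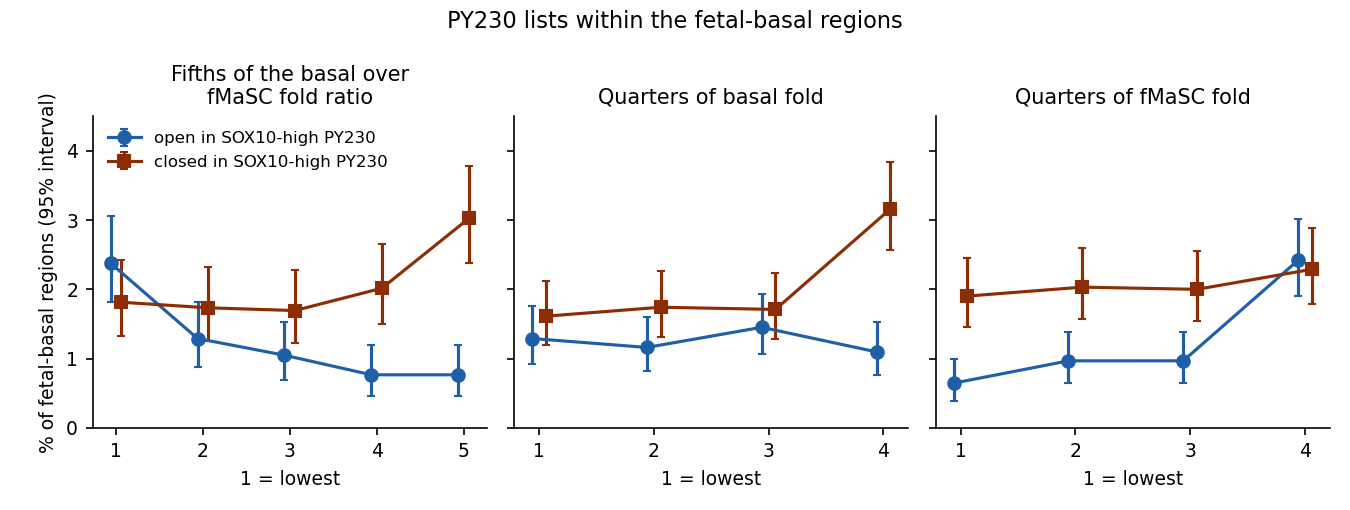
Percentage of fetal-basal regions in the PY230 open (circles) and closed (squares) lists, by 5 equal groups of the basal over fMaSC fold ratio (left) and by 4 equal groups of basal fold (middle) and fMaSC fold (right), with 95% exact binomial intervals. The open share rises with fMaSC fold, at 0.645% in the lowest and 2.42% in the highest group, and the closed share is highest at the top of the basal fold, at 3.16%.

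Members and regions of a single cell type differ in peak strength, so they were also compared within the same range of folds. At each range of fetal fold, members were open less often than fetal-only regions. The shares were 0.613% of members and 1.80% of fetal-only regions at fetal folds under 5, 0.874% of members and 1.61% of fetal-only regions at 5 to 7, 41 of 3292 members and 98 of 3271 fetal-only regions at 7 to 10, and 2.56% of members and 4.84% of fetal-only regions at 10 and over. Each of these 4 differences had an interval that excluded 0, and the widest was -2.28 points (-3.66 to -1.04) at folds of 10 and over. Members were wider than fetal-only regions at each range, for instance with a median of 879 bp against 620 bp at folds of 10 and over. Members minus basal-only regions in the open list gave 0.670 points at basal folds under 5 (0.234 to 1.22), 0.289 at 5 to 7 (-0.0992 to 0.732, which includes 0), 0.824 at 7 to 10 (0.338 to 1.36) and 0.586 at 10 and over (0.0509 to 1.08). In the closed list members minus basal-only gave 0.0405, 0.390, 0.314 and 0.890 points over the same ranges, low to high, and each of these 4 intervals, from smaller groups, included 0. At folds of 10 and over the closed share was 3.14% in members and 2.25% in basal-only regions, and the interval of the difference ran from -0.0540 to 1.77 points. Members minus fetal-only regions in the closed list gave 0.424 points at fetal folds under 5 (-0.154 to 1.13, which includes 0), 0.985 at 5 to 7 (0.524 to 1.49), 1.09 at 7 to 10 (0.544 to 1.66) and 2.12 at 10 and over (1.38 to 2.86).

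**Figure D5:**
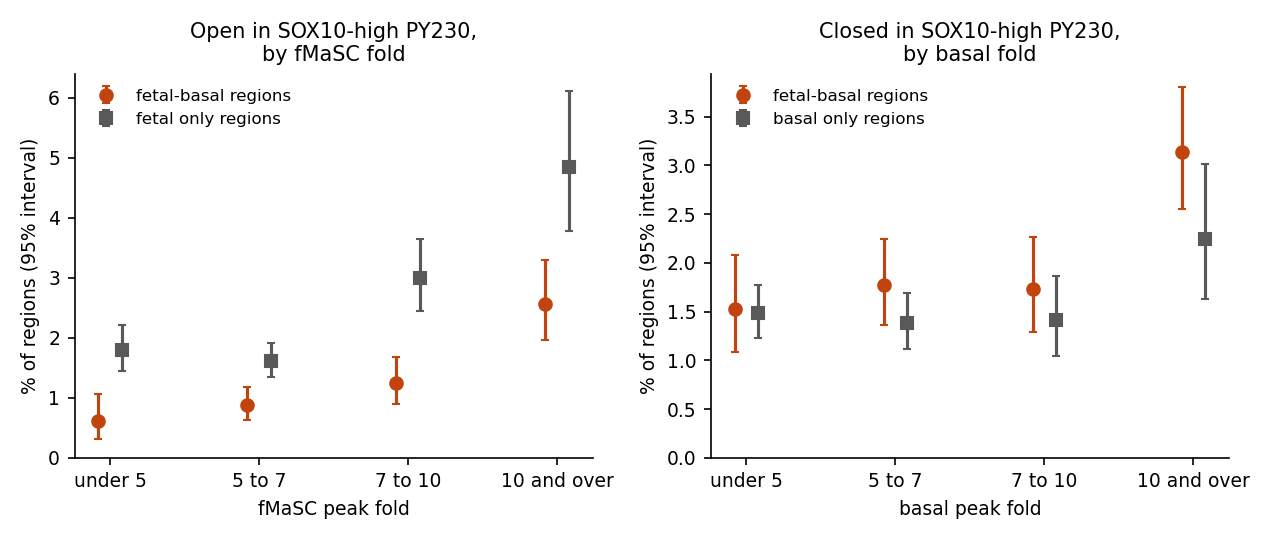
Left, percentage open in SOX10-high PY230 cells among fetal-basal regions (circles) and fetal-only regions (squares) by range of fMaSC fold; right, percentage closed among fetal-basal regions and basal-only regions by range of basal fold, each with 95% exact binomial intervals. On the left members lie below fetal-only regions at each range (2.56% against 4.84% at folds of 10 and over), and on the right the intervals of both classes overlap.

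Among the members that opened in SOX10-high cells, the highest open score, 262.8, fell on chromosome 15 from 78981670 to 78984851. This region was 3182 bp wide, all of it covered by a fetal peak with a fold of 16.0, while 2 basal peaks with a fold of up to 5.60 covered 1757 bp. Next came a member on chromosome 12 from 118350817 to 118351363. It scored 242.1 and had a basal fold of 6.25 and a fetal fold of 10.6. The third, on chromosome 9 from 110195826 to 110196778, had a score of 225.2, a basal fold of 7.33 and a fetal fold of 9.62. The fetal fold exceeded the basal fold at each of these 3 sites. At the fourth by score, on chromosome 8 from 14906966 to 14907980, the basal fold of 6.47 was the higher. Of the closed members, the highest closed score, 964.8, fell on chromosome 6 from 137490919 to 137492125, a region with a basal fold of 4.53 and a fetal fold of 17.2. It lay 611 bp from a mature luminal peak, and the next by score, on chromosome 10 from 96802138 to 96802893, lay 613 bp from one. Open tumour regions over members had a median score of 38.5, against 44.5 over the whole open list, and closed ones 48.5, against 123.3 over the whole closed list, on scales the authors do not state.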

How the data were processed

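Per the labels' protocols, sorted nuclei were cut with a Nextera transposase and sequenced in pairs. Tools and builds in the submitters' processing notes are MACS2 2.1.1, SICER, bedtools 2.20.1, SAMtools 1.3.1, Bowtie 0.12.8, FastQC and mm9, with no role or order. No source used here gives how duplicates, repeats or the Tn5 offset were handled. The value deposited by the authors for each peak is a fold, a ratio over background, for peaks called on pooled samples at a q-value of 0.001, per the list names. Within each list every fold was a whole multiple of 1 step (0.253 fetal, 0.216 basal, 0.208 luminal progenitor, 0.249 mature luminal; tolerance 0.02 steps), from 13 to 15 steps upwards. The UAR, URR and PY230 lists carry a score deposited by the authors on a scale not stated. No counts per sample were used, so depth is unknown.

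Peaks were taken as 1-based, and the lists on a 100 bp grid were moved by 1 base. Overlapping or touching peaks were merged, overlap meant at least 1 bp, and a region's fold was the highest of its peaks. Equal groups by fold broke ties by position. Shares have exact (Clopper-Pearson) 95% intervals and differences Newcombe 95% intervals; for a count of 0 the limit of 3 counts is given. Pooled lists allow no test over samples. Members, region classes and fold ranges were chosen with earlier results of these data known. The regions named followed a fixed rule (strongest in both or either cell type, most uneven fold, highest list score, widest, nearest the border, densest 1 Mb windows), and only some of them are printed; runs of 6 were added afterwards. Gene lists and motifs planned for an mm9 annotation were not used. Python 3.11.15, numpy 2.4.6, pandas 2.3.3, scipy 1.17.1, statsmodels 0.14.6 and matplotlib 3.10.9 were used, and merging and overlap were tested on simulated data against bedtools 2.31.1.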

Additional observations from a re-analysis of the deposited data

How the results depend on the processing

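The number of fetal-basal regions depended on which peaks were counted. It was 2896 with the 30015 strongest peaks of each list, 6495 with the 60030 strongest, 6349 with peaks at or above the median fold of their list, and 7313 when no luminal peak was allowed within 5 kb. Under these settings 1097, 6454, 2518 and 7313 of the 12399 members overlapped a region that still qualified. The other 5 settings gave 11629 to 12578 regions. The difference of members from the rest of the union in the open list was negative under all 11 alternatives. With the 30015 strongest peaks it was -0.200 points, with an interval that included 0 (-0.646 to 0.368), and under the others it stayed within the interval of the reported value. The difference in the closed list was negative under all 11 as well, and left the reported interval with the 30015 strongest peaks (-11.1 points), the 60030 strongest (-10.9), peaks within 500 bp joined (-10.5) and peaks set to 500 bp (-9.46). The cause was not tested. Shares in both UAR lists were equal to those reported under the 2 alternatives run for each. Members with another member near by made up 16.5% within 5 kb and 40.2% within 20 kb, and the densest window held 20 members at 500 kb and 47 at 2 Mb. The fullest windows of 500 kb, with 20 members each, were on chromosomes 4 and 8, and that on chromosome 1 came next with 19. With tumour regions that hold no luminal peak, an alternative chosen after seeing the data, the closed difference between members far from and near to a luminal progenitor peak reversed to 1.02 points, and that for mature luminal peaks was -0.0752. This setting leaves out by construction regions that reach both a member and a luminal peak.

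No paired analysis was possible because each list pools the samples of a population, and leaving out a sample was not possible for the same reason. Peak calls of separate lists move with sequencing depth, which is unknown, so absence of a luminal peak is absence of a call.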

Other observations

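In regions outside the fetal-basal class the ties of fold with the PY230 lists can be set beside those of the members. By 4 equal groups of fetal fold, fetal-only regions were open in SOX10-high cells in 1.75, 1.59, 1.66 and 3.72% of cases, low to high. Regions with basal, fetal and luminal progenitor peaks were open in 4.18, 4.08, 6.05 and 7.92%. In both classes, as in the members, the group of highest fetal fold had the highest open share. By 4 equal groups of basal fold, basal-only regions were closed in 1.60, 1.50, 1.14 and 1.78% of cases, and the intervals of the lowest (1.27 to 1.99%) and highest (1.44 to 2.19%) overlapped. Members were closed in 1.61 and 3.16% in the lowest and highest group, and whether this step differs from that of basal-only regions was not tested.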
